A study of Rattus norvegicus with 24 samples.

Results

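Genes of the heat shock and chaperonin machinery were followed in rat liver across sex and exposure to PCB 52, 10 in all. They are Hspe1, Hspd1 and Hspa9, whose proteins work in mitochondria, and Hspa8, Hsph1, Hsp90aa1, Hsp90ab1, Hspb1, Dnajb1 and Bag3, whose proteins work mainly in the cytosol. The genes were chosen by name, with earlier results of these data known, and all 10 of 10 were found among the 15319 gene IDs of the count tables. All 10 passed the filter on low counts in every comparison. The animals were 24 Sprague-Dawley rats, of which 12 were female and 12 male, and in each sex 6 had a sham exposure and 6 inhaled PCB 52. PCB 52 belongs to the polychlorinated biphenyls, long-lived industrial chemicals, and was given by nose-only inhalation for 4 hours a day over 28 days in an airflow of 12 L/min. Rats arrived at 28 days of age, and exposure started at 42 days in females and 39 days in males. Each library came from the liver of a separate animal, a bulk tissue with no cell sorting. All animals were of a single outbred stock, were adolescents when exposure started and carried no engineered allele, as far as the labels state. Sham animals hold the animal numbers 1 to 12 and exposed animals 13 to 24, so the order of numbering and exposure cannot be told apart.

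Chaperones bind unfolded proteins and help them reach or keep their shape. In mitochondria, Hspa9 (the mitochondrial Hsp70) helps to pull proteins through the import channels, and the Hspd1 barrel (Hsp60) closed by the Hspe1 lid (Hsp10) folds them. In the cytosol, J-domain proteins such as Dnajb1 load clients onto the constitutive Hsp70, Hspa8, exchange factors such as Hsph1 and Bag3 release them, and Hsp90 matures receptors and kinases. Many of these genes are targets of the heat shock factor Hsf1, which binds inverted repeats of a short unit, the heat shock element, and liver expresses the system constitutively.

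The promoters of Hspe1, Hspa8, Hsph1, Hsp90ab1 and Dnajb1 are shown because these are the genes with an entry that differed between the sexes by the tests given with the levels. Each is the 250 bases before the listed transcription start of the gene, 5′ to 3′ on the gene's strand, from RefSeq on build GRCr8, and 9 of the 10 genes had an entry. Capitals mark matches to a heat shock element in its 2-unit form, GAANNTTC or TTCNNGAA, or in a 3-unit form, which adds a further inverted unit after 2 free bases. Matches that overlap are shown as 1 run.
Hspe1 (chr9:64084077-64084326, plus strand): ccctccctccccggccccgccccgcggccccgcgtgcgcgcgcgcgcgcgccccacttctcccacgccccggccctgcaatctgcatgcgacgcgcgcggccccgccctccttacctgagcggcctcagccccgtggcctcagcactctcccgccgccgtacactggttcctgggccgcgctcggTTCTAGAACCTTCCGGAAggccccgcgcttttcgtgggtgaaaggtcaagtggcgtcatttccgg
Hspa8 (chr8:50080264-50080513, plus strand): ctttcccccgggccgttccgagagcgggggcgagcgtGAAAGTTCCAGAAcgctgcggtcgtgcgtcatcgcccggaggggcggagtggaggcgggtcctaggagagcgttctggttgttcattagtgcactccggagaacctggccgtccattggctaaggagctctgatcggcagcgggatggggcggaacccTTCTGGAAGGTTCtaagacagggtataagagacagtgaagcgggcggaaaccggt
Hsph1 (chr12:10427118-10427367, plus strand): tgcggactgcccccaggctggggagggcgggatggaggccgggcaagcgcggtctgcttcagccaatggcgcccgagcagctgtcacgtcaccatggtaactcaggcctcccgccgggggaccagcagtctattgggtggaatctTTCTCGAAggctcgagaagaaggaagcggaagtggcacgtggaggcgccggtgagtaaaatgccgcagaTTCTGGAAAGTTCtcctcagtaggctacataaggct
Hsp90ab1 (chr9:22930173-22930422, plus strand): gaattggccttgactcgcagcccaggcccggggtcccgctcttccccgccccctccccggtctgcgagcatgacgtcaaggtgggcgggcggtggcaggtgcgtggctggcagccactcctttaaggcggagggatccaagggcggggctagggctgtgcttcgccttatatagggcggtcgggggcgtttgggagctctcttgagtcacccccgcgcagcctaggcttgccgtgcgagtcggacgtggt
Dnajb1 (chr19:41431142-41431391, minus strand): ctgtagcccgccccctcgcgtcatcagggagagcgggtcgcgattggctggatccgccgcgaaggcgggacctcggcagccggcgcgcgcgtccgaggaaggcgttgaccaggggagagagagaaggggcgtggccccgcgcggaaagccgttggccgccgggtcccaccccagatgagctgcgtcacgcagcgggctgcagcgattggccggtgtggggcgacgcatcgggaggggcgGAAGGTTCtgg

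A 2-unit match, searched on both strands, lay in 8 of the 9 promoters (88.9%), against 13.5% of 33469 promoters of the same length. A 3-unit match lay in Hspe1, Hspd1, Hspa8 and Hsph1, 4 of 9 (44.4%), against 0.663% of all promoters. Hsp90ab1 held neither form in this window. A CCAAT box (CCAAT or ATTGG) lay in 5 of 9 (55.6%), against 34.0% of all promoters, and the Hsp90ab1 window held 1. Hspe1 and Hspd1 are transcribed away from each other from starts 289 bases apart, and 211 bases of their windows are the same stretch read on opposite strands. The capital run in Hspe1, from 65 to 48 bases before its start (-65 to -48), is therefore also the run that lies at -242 to -225 of Hspd1. These matches are letters in a sequence and no factor's binding was measured.

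Libraries held between 6994832 and 9185511 counts. Levels are counts per 1e+06 library counts (CPM) with TMM scaling, which evens out differences in library composition, and they were not corrected for transcript length, so levels are compared within a gene and not between genes. The 8 hepatocyte markers, led by Alb, summed to between 141792 and 199800 CPM in every library. Of the 4 adipocyte markers, Plin1 and Lep were at 0 in all libraries and Adipoq reached at most 0.118 CPM. The remaining marker, Cidec, ran from 46.4 to 80.9 CPM. Animals 13 to 16, the females and males with the lowest numbers among the exposed, stood apart on the leading axis of variation between libraries, with scores from 8.31 to 12.7, against at most 6.98 in any other animal. Values without them stand beside the response of Hspe1, the sex differences in exposed animals, the ratio of Hspe1 to Hspd1 and the co-variation. The scores of the 12 pairs of consecutively numbered animals, 1 female and 1 male each, differed within a pair by 1.72 at the median and 4.37 at most, over a range from -7.12 to 12.7. The tests over 24 animals treat the animals as independent. If animals of a pair are alike, the p-values of the average response and of the co-variation may be too small. Those of the differences between the sexes may then be too large. RefSeq lists 95 pseudogenes of 6 of the genes, 33 of Hspa8, 23 of Hsp90ab1, 20 of Hspd1, 16 of Hsp90aa1, 2 of Hspa9 and 1 of Hspe1, and 0 of them were in the count tables. Reads shared with those copies could have been split or dropped, so the levels of these 6 genes are uncertain to that extent.

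Exposure left none of the 10 genes past the test in either sex, and the value farthest from its spread was that of Hspe1, the mitochondrial co-chaperonin. In females 0 of 10 genes were called by edgeR's quasi-likelihood test at an adjusted p of 0.05, where 0.0% of 10251 genes were called. In males 0 of 10 were called, where 0.0% of 10180 genes were called, and 0 of 10 in the average of both sexes, where 0.0% of 10535 were called. Without adjustment 1021 genes in females, 585 in males and 1625 in the average had a p under 0.05. DESeq2 called 27 genes in females and 1 in males, none of them among the 10, and 99 in the average, among them Hspe1. No gene of the 10 separated the exposed from the sham animals without overlap, where 0.38% of all tested genes did so in females and 0.218% in males.

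Hspe1 was lower in all 6 exposed animals of each sex than the mean of the sham animals of that sex. In females its level had a lowest, median and highest value of 40.3, 43.0 and 47.8 CPM after sham exposure and 27.3, 35.5 and 41.7 CPM after PCB 52. In males the values were 29.8, 33.2 and 34.4 CPM after sham exposure and 20.8, 27.1 and 31.3 CPM after PCB 52. The groups overlapped, with 4 of 6 exposed females and 3 of 6 exposed males below every sham animal of their sex. The log2 fold change was -0.31 ± 0.11 (SE, n = 6 per group) in females, with an edgeR adjusted p of 0.395, and -0.30 ± 0.11 in males, with an adjusted p of 0.829. The average of both sexes was -0.31 ± 0.08, a level 19.1% lower, with an unadjusted p of 3.4e-04 and an adjusted p of 0.113. DESeq2 put the average at -0.31 with an adjusted p of 0.0162. Leaving out any single library kept the average between -0.33 and -0.27, with edgeR adjusted p from 0.0620 to 0.199. Without animals 13 to 16 it was -0.18 (adjusted p 0.511), and with the axis score in the model -0.22 (adjusted p 0.380). With the counts of each pair of consecutively numbered animals summed, 6 sham against 6 exposed units, it was -0.32 with an edgeR adjusted p of 0.359 and an unadjusted p of 0.00243, and 0 genes were called; this fit was chosen after seeing the data. In bulk liver, fewer cells of a type and less RNA per cell cannot be told apart.

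**Figure D1:**
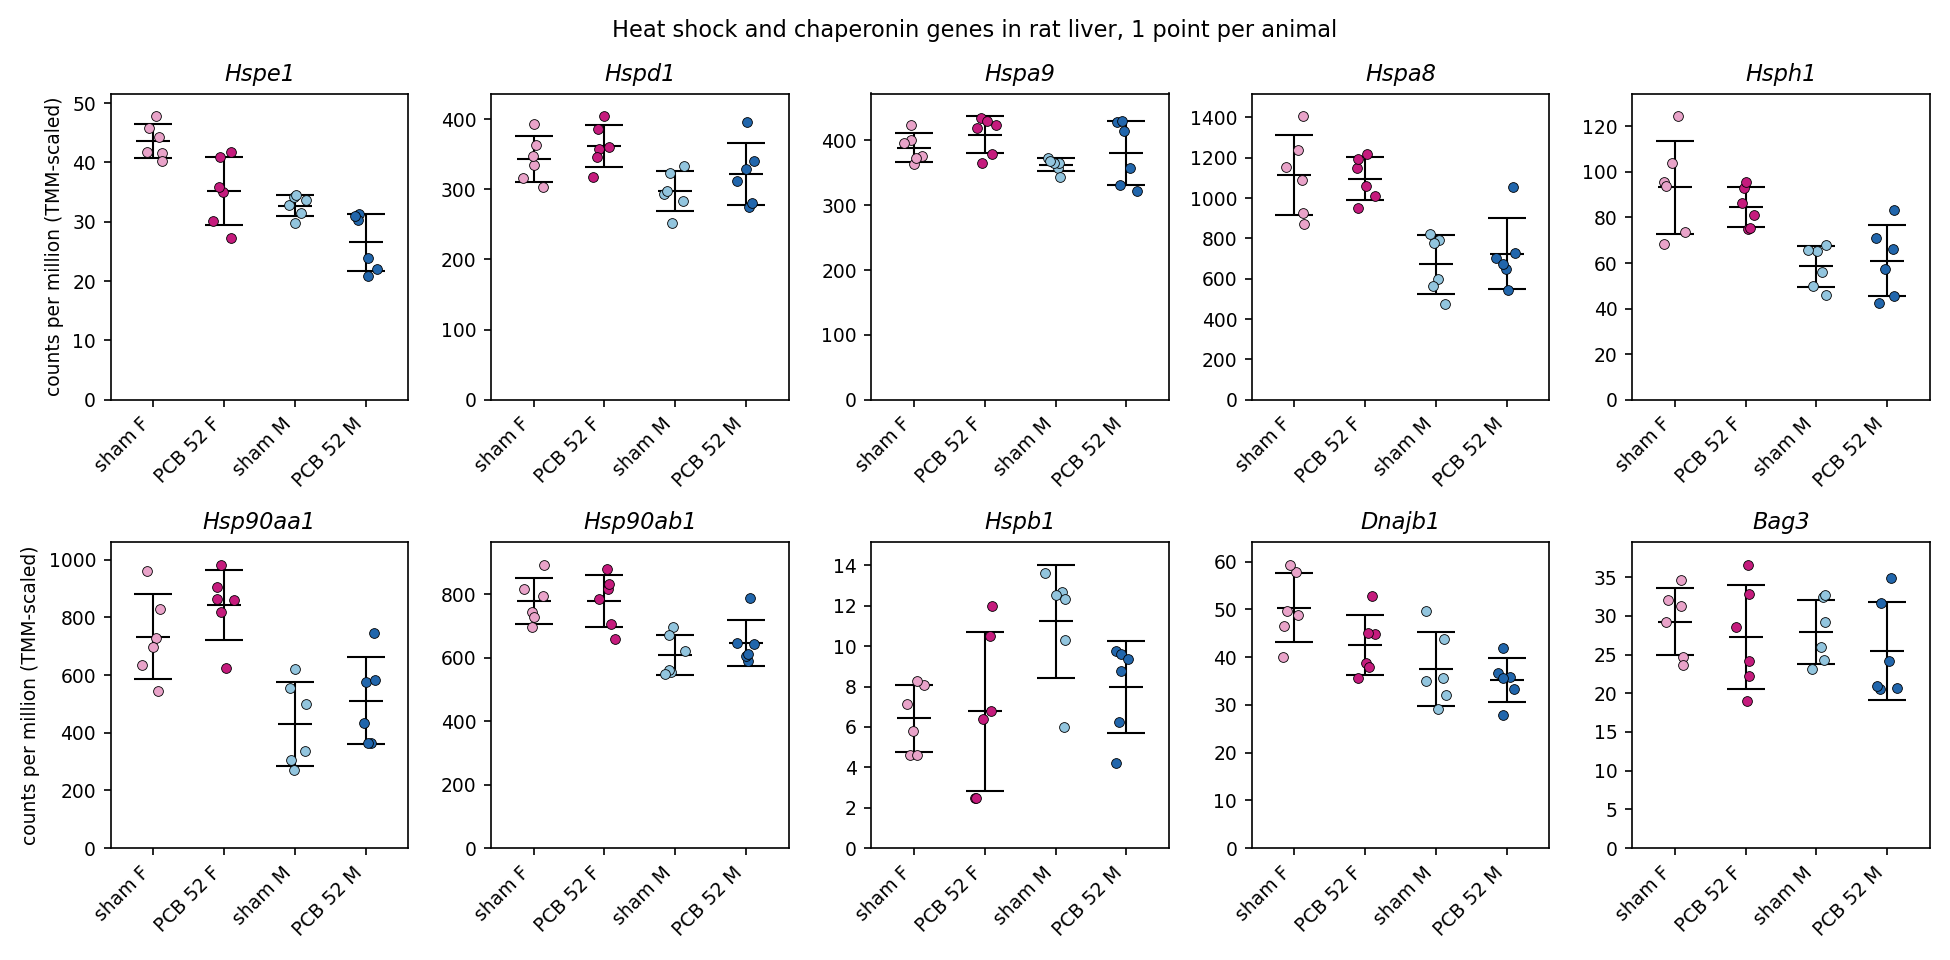
TMM-scaled CPM (vertical axis, from 0) of the 10 genes in each of the 24 livers, with 1 point per animal and a bar for the group mean ± SD (n = 6). Hspe1 sits lower after PCB 52 in both sexes with overlapping groups, and Hspa8, Hsph1, Hsp90aa1 and Hsp90ab1 sit higher in females than in males.

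Hspd1, which encodes the barrel that the Hspe1 lid closes, did not share this direction. In females it ran from 304 through a median of 341.02 to 393 CPM after sham exposure and from 318 through 358.5 to 404 CPM after PCB 52. In males it ran from 252 through 296 to 333.96 CPM after sham exposure and from 274 through 320 to 396 CPM after PCB 52. The groups overlapped broadly, and 5 of 6 exposed females and 4 of 6 exposed males were above the mean of the sham animals. The log2 fold change was 0.07 ± 0.09 in females and 0.11 ± 0.09 in males, with edgeR adjusted p of 0.797 and 0.864. The average was 0.10, with a 95% interval from -0.03 to 0.22, whereas that of Hspe1 ran from -0.46 to -0.15.

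The ratio of the partners within a library does not depend on the scaling between libraries. The log2 ratio of Hspe1 to Hspd1 CPM averaged -2.97 ± 0.18 (SD, n = 6) in sham females and -3.38 ± 0.32 in exposed females. In males it averaged -3.18 ± 0.16 after sham exposure and -3.61 ± 0.36 after PCB 52. The spread was wider among exposed than among sham animals of both sexes. Animals 13 to 16 held the 4 lowest ratios of all, at -3.98, -3.75, -3.94 and -3.71 in the order of their numbers. Animal 21, an exposed male with a library axis score of -0.44, also had a ratio of -3.71. Of the other exposed animals, 23 and 24 had -3.68 and -3.43 (scores 4.87 and 2.84), below every sham animal of their sex. Animal 20 had -3.30 (score -6.61), just below the lowest sham female at -3.29. Sham animals 11 and 12 had the highest scores of the sham animals, 6.98 and 5.30. They also had the lowest sham ratios of their sex, -3.41 and -3.29. Exposed animals 17, 18, 19 and 22 had -3.13, -2.93, -3.21 and -3.14, within the range of the sham animals of their sex. Their scores were -3.11, -3.51, -6.23 and -0.71. Without animals 13 to 16 the exposed means were -3.20 ± 0.22 (SD, n = 4) in females and -3.43 ± 0.30 in males, below the sham means by a log2 difference of -0.22 and -0.25, against -0.40 and -0.43 with all animals. The ratio was looked at after the values of both genes were known, and no test of it was made.

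**Figure D2:**
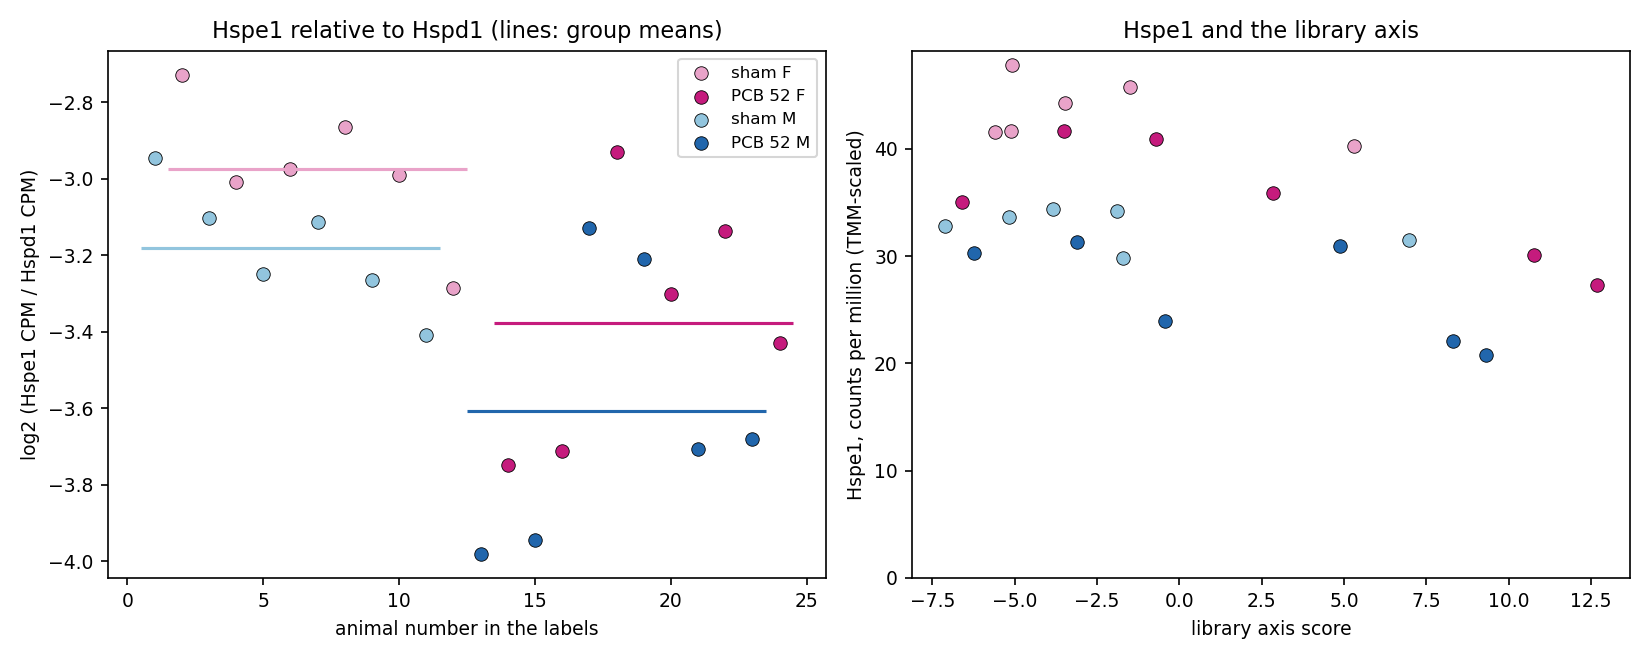
Left, the log2 ratio of Hspe1 to Hspd1 CPM (vertical axis) against the animal number in the labels, with 1 point per animal and a line for each group mean. Right, Hspe1 level in TMM-scaled CPM against the library axis score; animals 13 to 16 are the 4 points with scores above 8.

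Hspa9, the mitochondrial Hsp70, differed least between exposed and sham animals among the mitochondrial genes. Its level lay between 364 and 423 CPM in sham females, 366 and 434 CPM in exposed females, 344 and 373 CPM in sham males and 322 and 430 CPM in exposed males. The log2 fold change was 0.07 ± 0.08 in each sex. In exposed males 3 animals were above every sham male and 2 were below every sham male, so the exposed group was the wider of the pair.

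Among the cytosolic genes, the constitutive Hsp70 Hspa8 had a log2 fold change of -0.03 ± 0.11 in females and 0.11 ± 0.17 in males. Hsp90ab1, the constitutive Hsp90, had values of 0.00 in females and 0.08 ± 0.09 in males. Hsp90aa1, the stress-inducible Hsp90, had the highest values of the 10, 0.20 ± 0.13 in females and 0.24 ± 0.26 in males, and neither passed (edgeR adjusted p 0.619 and 0.890). The value of Hsph1, an Hsp110-type exchange factor, was -0.15 ± 0.12 in females and 0.06 ± 0.16 in males. The intervals do not exclude moderate differences, since the 95% interval of Hsp90aa1 in males ran from -0.32 to 0.80.

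Dnajb1, a J-domain partner of Hsp70, had a log2 fold change of -0.25 ± 0.11 in females, with an unadjusted p of 0.0399 and an edgeR adjusted p of 0.486. Its lowest, median and highest levels were 40.02, 49.3 and 59.4 CPM in sham females and 35.7, 41.9 and 52.7 CPM in exposed females. In males the value was -0.09 ± 0.12. Hspb1, a small heat shock protein that holds unfolded proteins without ATP, had a log2 fold change of -0.49 ± 0.21 in males, with an unadjusted p of 0.0296 and an adjusted p of 0.829. It was measured at 6.00, 12.4 and 13.6 CPM in sham males and at 4.21, 9.07 and 9.76 CPM in exposed males, with no more than 75 counts in any exposed male. In females Hspb1 had a value of 0.07 ± 0.35, and its exposed animals ran from 2.48 to 12.0 CPM. Bag3, which links Hsp70 to the removal of damaged proteins, had values of -0.11 ± 0.14 in females and -0.14 ± 0.14 in males. In each sex 2 genes had an unadjusted p under 0.05, all of them lower after exposure: Hspe1 and Dnajb1 in females, and Hspe1 and Hspb1 in males.

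The 10 genes had a median log2 fold change of -0.01 in females and 0.06 in males, against 0.00 over all genes tested in each sex. The response of no gene was shown to differ between the sexes. The female minus male difference of the log2 fold change ran from -0.20 for Hsph1 to 0.57 for Hspb1, the smallest unadjusted p was 0.202, and 0 of 10 genes were called, where 0.0% of 10535 genes were called by edgeR, 0 by DESeq2 and 239 at an unadjusted p under 0.05. Immediate early genes, which respond to handling of tissue, had values mostly below 0 with exposure, and none was called. In females 16 of 17 tested were below 0 (7 at an unadjusted p under 0.05), and in males 14 of 16 (4 at such a p). Of all genes tested, 5.32% in females and 2.85% in males were lower at such a p, and 50.7% and 51% had values above 0. The immediate early genes summed to 706 to 1109 CPM in sham females, 535 to 859 CPM in exposed females, 664 to 1178 CPM in sham males and 566 to 773 CPM in exposed males. Their part in the values of Hspe1, Dnajb1 and Hspb1 was not tested.

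**Figure D3:**
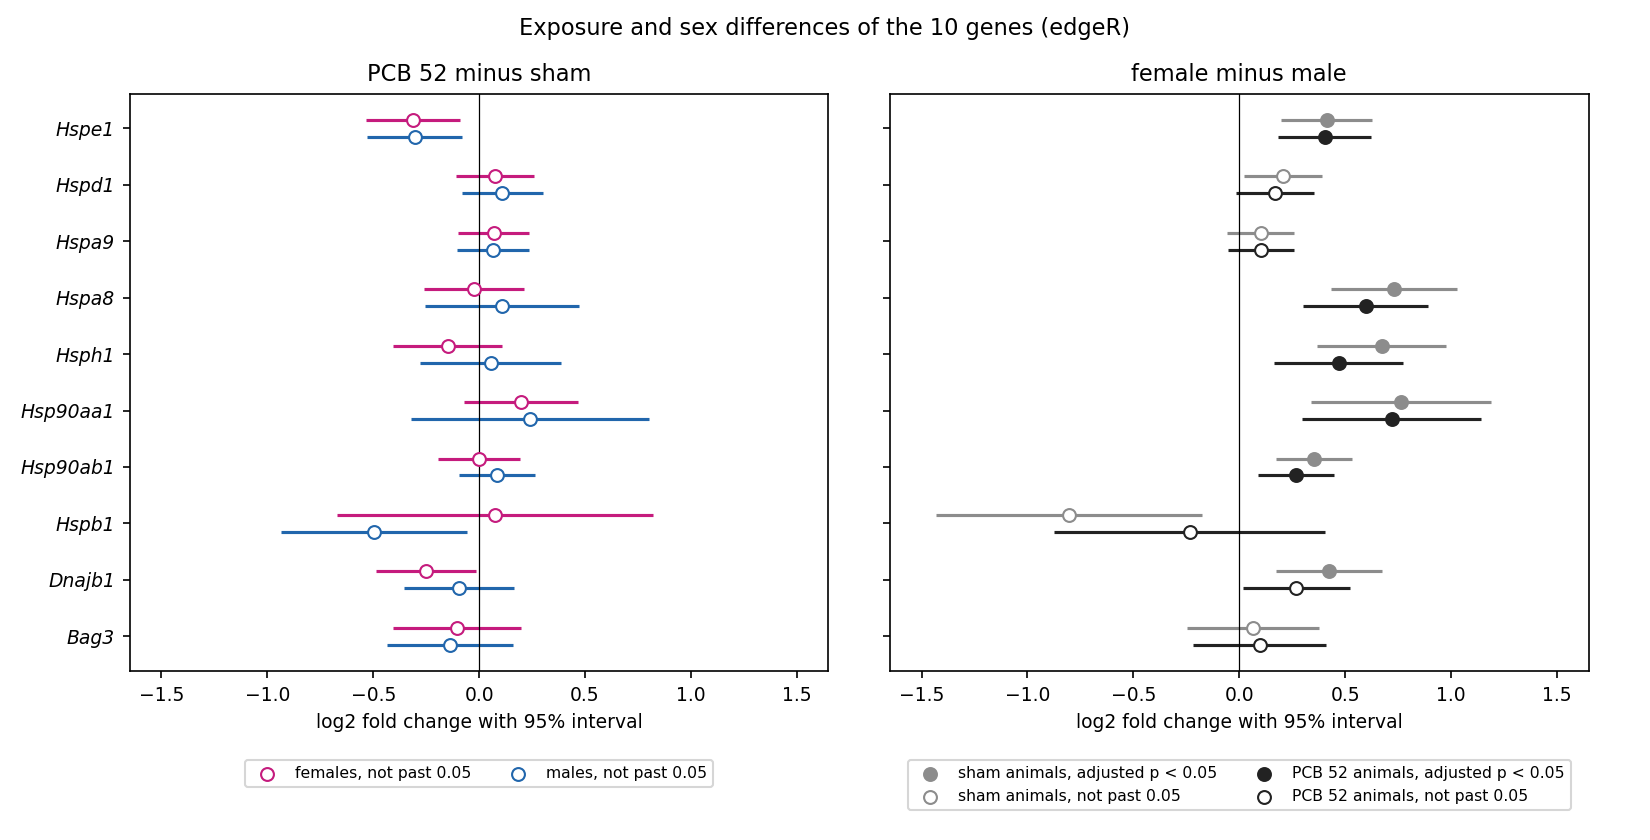
Log2 fold changes with 95% intervals (horizontal axis) of the 10 genes from edgeR, left for PCB 52 minus sham in each sex, right for female minus male in sham and in exposed animals. Filled points passed an adjusted p of 0.05: none on the left, and on the right 6 genes in sham and 5 in exposed animals, all higher in females.

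Most of the 7 cytosolic genes described here were higher in females than in males. In sham animals 6 of 10 genes passed the test and all 6 were higher in females, namely Hspe1, Hspa8, Hsph1, Hsp90aa1, Hsp90ab1 and Dnajb1. Over all 10535 genes tested 20.3% were called, and 10.7% were called higher in females. In exposed animals 5 of 10 were called, all higher in females, where 19.9% of all genes were called and 10.1% higher in females. The 10 genes were chosen with earlier results of these data known, so these shares only describe them. The median log2 difference of the 10 genes was 0.38 in sham and 0.27 in exposed animals, against 0.00 over all genes in both. Females and males came in separate count tables and began exposure at different ages, so sex, table and starting age cannot be told apart.

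Hspa8 was 1.66-fold higher in sham females than in sham males, a log2 difference of 0.73 ± 0.14 (edgeR adjusted p 3.65e-04). Its lowest, median and highest levels were 873.1, 1121 and 1406 CPM in sham females and 472, 687 and 820 CPM in sham males. The groups did not overlap. After PCB 52 the values were 949, 1104 and 1221 CPM in females and 543, 688 and 1056 CPM in males, and 1 male, replicate 6, reached into the female range. The log2 difference in exposed animals was 0.60 ± 0.14 (edgeR adjusted p 0.0029).

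Hsph1, which exchanges nucleotides on Hsp70, was 1.60-fold higher in sham females, a log2 difference of 0.67 ± 0.15 (edgeR adjusted p 0.00127). Levels were 68.5, 94.7 and 124 CPM in sham females and 46.2, 60.7 and 67.7 CPM in sham males, again without overlap. After PCB 52 they were 75.0, 83.7 and 95.8 CPM in females and 42.6, 61.9 and 83.3 CPM in males. The exposed groups overlapped, and the log2 difference was 0.47 ± 0.15 (edgeR adjusted p 0.0236). This call was lost in 3 of 24 fits that left out a library, those without exposed female 2, exposed male 3 or exposed male 4, with the log2 difference never under 0.38.

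The pair of cytosolic Hsp90 genes were both higher in females. Hsp90aa1 was measured at 543, 713 and 962 CPM in sham females and at 271, 419 and 620 CPM in sham males. These groups overlapped at their ends, and the log2 difference was 0.76 ± 0.20 (edgeR adjusted p 0.00848), the highest of the 10. Hsp90ab1 was measured at 696, 769 and 892 CPM in sham females and at 549, 592 and 695 CPM in sham males, which did not overlap by a narrow margin. Its log2 difference was 0.35 ± 0.09 (edgeR adjusted p 0.00375). In exposed animals the log2 differences were 0.72 ± 0.20 for Hsp90aa1 and 0.27 ± 0.09 for Hsp90ab1, with edgeR adjusted p of 0.0129 and 0.0292. The call of Hsp90ab1 in exposed animals was lost in 6 of 24 fits that left out a library, those without replicate 3, 4 or 5 of the exposed females or of the exposed males, with the log2 difference never under 0.23.

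Hspe1, besides its lower values after exposure, was 1.33-fold higher in sham females than in sham males, a log2 difference of 0.41 ± 0.11 (edgeR adjusted p 0.00457). The lowest sham female, at 40.3 CPM, lay above the highest sham male, at 34.4 CPM. In exposed animals the log2 difference was 0.40 ± 0.11 (edgeR adjusted p 0.00635) and the groups overlapped. Its partner Hspd1 had log2 differences of 0.21 ± 0.09 in sham and 0.17 ± 0.09 in exposed animals, and Hspa9 had 0.10 ± 0.08 in both, and neither gene passed. Dnajb1 was higher in sham females by 0.43 ± 0.12 (edgeR adjusted p 0.0118), with 29.1, 35.3 and 49.7 CPM in sham males, a range that overlapped that of the sham females. In exposed animals its value was 0.27 ± 0.12 (edgeR adjusted p 0.135).

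Hspb1 was the gene of the 10 with the opposite sign. Sham females had 4.61, 6.48 and 8.29 CPM, while 5 of 6 sham males lay above every sham female. The log2 difference of -0.80 ± 0.30 did not pass (edgeR adjusted p 0.0645), and DESeq2 called it. In exposed animals the value was -0.23 ± 0.31. Bag3 had values of 0.07 ± 0.15 in sham and 0.10 ± 0.15 in exposed animals, with ranges that overlapped broadly.

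Without overlap between the sexes were 4 of the 10 genes in sham animals (Hspe1, Hspa8, Hsph1 and Hsp90ab1), where 11.5% of all genes did not overlap, and 0 of 10 in exposed animals, where 9.81% did not. All 6 calls in sham animals held in each of the 24 fits that left out a library. The fits that left out an exposed library kept every sham animal and bear on these calls only through the shared spread, scaling and filter. Likewise, fits that left out a sham library kept every exposed animal. Without animals 13 to 16, of the 5 calls in exposed animals only that of Hspe1 held, at a log2 difference of 0.40 (edgeR adjusted p 0.00481). The values of the other 4 without them, from 4 animals a group, were 0.53 for Hspa8, 0.48 for Hsph1, 0.74 for Hsp90aa1 and 0.30 for Hsp90ab1, with adjusted p from 0.0679 to 0.0964. Macrophage markers moved with sex too: 7 of the 8 Kupffer cell and macrophage genes had values above 0 in sham animals and 5 were called higher in females, with a summed level of 531 to 784 CPM in sham females and 432 to 530 CPM in sham males. Immediate early genes were above 0 in 14 of 17, with 3 called higher, and summed to 706 to 1109 CPM against 664 to 1178 CPM. Over all genes tested in sham animals, 49.5% had values above 0 and 10.7% were called higher in females. The part of either list in the sex differences of the chaperones was not tested.

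Genes of the wider chaperone network were called in both directions between the sexes. Apart from the list of endoplasmic reticulum chaperones, 8 other lists held 74 tested genes. The split is by list, and some genes of the 8 lists also encode proteins of that compartment. Of the 74 genes, 12 were called higher and 5 lower in sham females, with a median log2 difference of 0.05. These 17 are 22.97% of the lists' genes, where 20.3% of all genes were called, 10.7% higher and 9.62% lower. Without Hsf4, which passed the filter on low counts only through the males, they are 16 of 73 or 21.9%. In exposed females 9 of the 74 were called higher and 5 lower, Hsf4 among the 5, where 10.1% of all genes were called higher and 9.73% lower. Among the Hsp90 co-chaperones 4 of 15 were called higher and 1 lower. Of these Fkbp4, an immunophilin that rides on Hsp90 with steroid receptors, had a log2 difference of 0.85 ± 0.10 (edgeR adjusted p 8.66e-08), Ppid 0.37 ± 0.11, Stip1, which joins Hsp70 to Hsp90, 0.35 ± 0.11 and Ahsa1, which speeds up the ATPase of Hsp90, 0.26 ± 0.08. Of the other cytosolic Hsp70 and Hsp110 genes 1 of 4 tested was called, Hspa4l, a relative of Hsph1, at 1.58 ± 0.30 (edgeR adjusted p 1.71e-04). Among the exchange factors and BAG proteins 1 of 9 was called, Grpel2, an exchange factor of mitochondrial Hsp70, at 1.20 ± 0.14 (edgeR adjusted p 9.28e-08). Of the cytosolic J-domain partners 3 of 13 were called, all higher in females, and Dnaja1 stood at 0.30 ± 0.08. In exposed animals 2 of these 9 and 0 of these 13 were called. Among the heat shock factors, Hsf1 had a value of 0.01 ± 0.14, and Hsf2 of -0.04 ± 0.12. Hsf4 held 34 counts summed over the 6 libraries of sham females, 53 in exposed females and 192 in the males of either treatment, and since it passed the filter only through the males no fold is given. Fkbp4, Ppid, Stip1, Ahsa1, Grpel2 and Dnaja1 were named after their values were seen, and all had higher values in sham females. Of the 5 genes called lower in sham females, only Hsf4 is named.

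**Figure D4:**
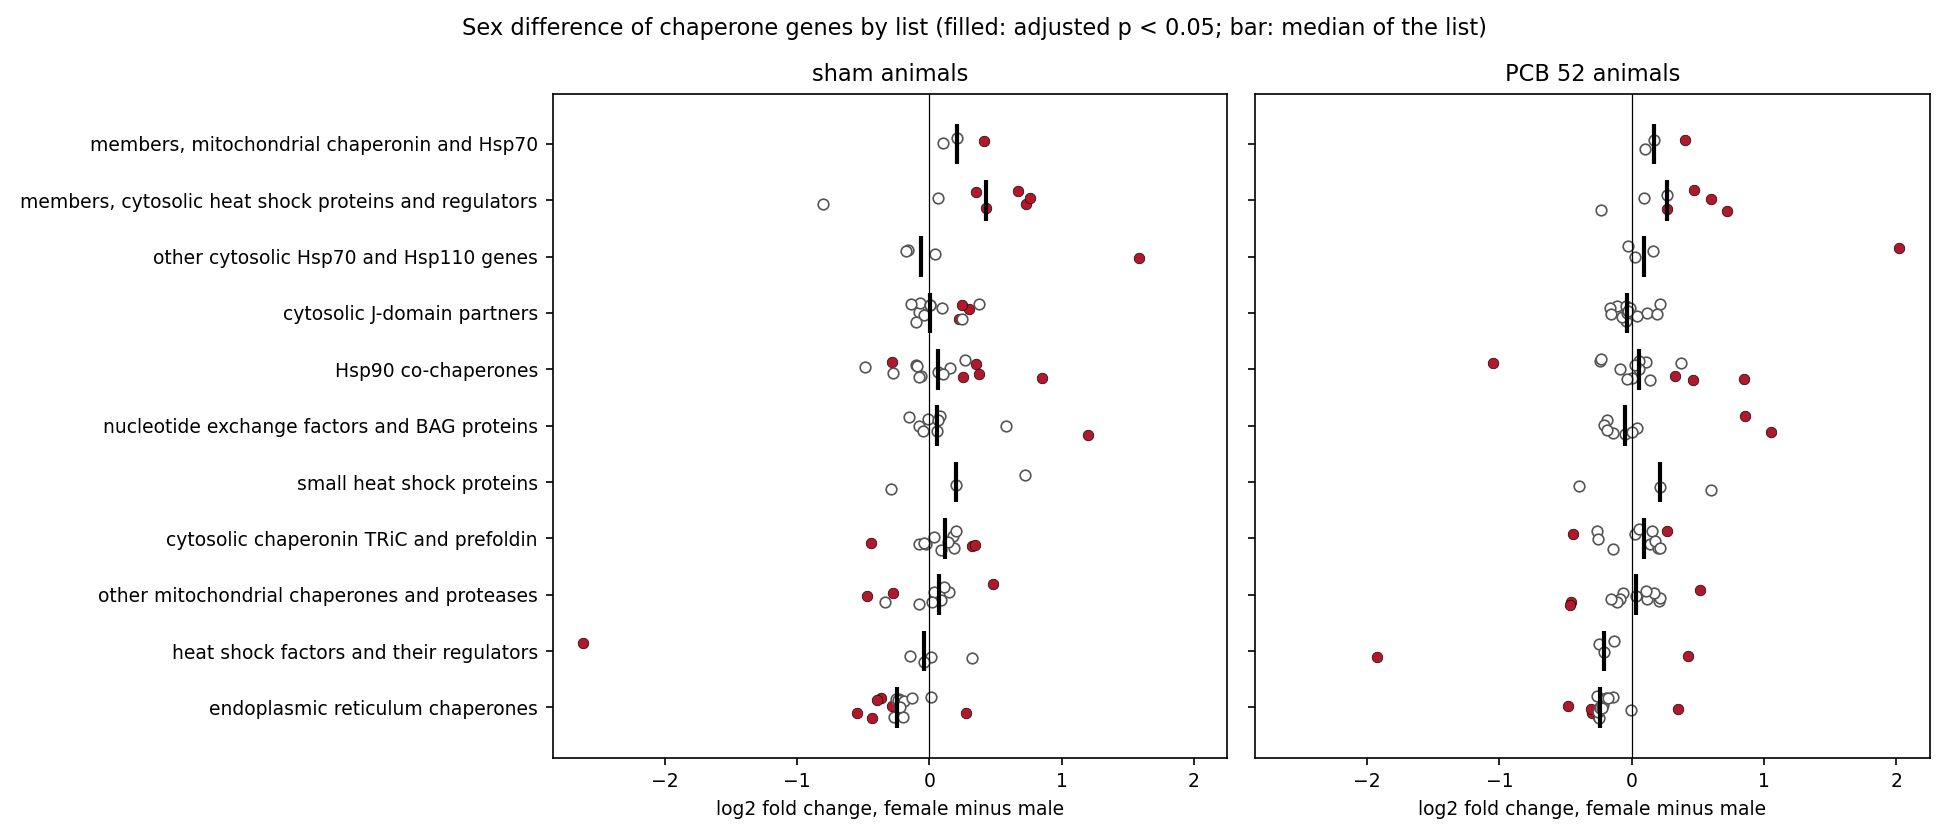
Log2 difference between females and males (horizontal axis) of each tested gene of the chaperone lists, left in sham and right in exposed animals. Filled points passed an adjusted p of 0.05 and the black bar is the median of the list, 0.43 in sham and 0.27 in exposed animals for the 7 cytosolic genes described here. The filled point farthest to the left is Hsf4, which passed the filter on low counts only through the males.

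With exposure, none of the 74 tested genes of those 8 lists was called by edgeR in the average of both sexes, and 6 had an unadjusted p under 0.05 with a higher and 12 with a lower value. That is 24.32% of the lists' genes, where 15.4% of all genes tested had such a p and 7.38% had it with a lower value. Values above 0 were held by 51.6% of all genes. The exchange factors and BAG proteins had a median of -0.13 with 6 of 9 below 0, among them Bag5 at -0.20 ± 0.08 and Hspbp1 at -0.23 ± 0.09. Of the cytosolic J-domain partners 10 of 13 were below 0, including Dnaja4 at -0.26 ± 0.12. TRiC, the cytosolic chaperonin, and prefoldin, which hands it clients, had Cct6a at 0.18 ± 0.06 and Cct8 at 0.14 ± 0.06, and Pfdn2 at -0.23 ± 0.09 and Pfdn5 at -0.20 ± 0.08. Of the mitochondrial proteases Yme1l1, of the inner membrane, had 0.26 ± 0.07 and Spg7 -0.19 ± 0.07. Of the heat shock factors Hsf1 stood at -0.12 ± 0.10, Hsf2 at 0.20 ± 0.08, and the small heat shock protein Cryab stood at 0.48 ± 0.19. The edgeR adjusted p of the genes named in this paragraph ran upward from 0.146. Hspa1a, the stress-induced cytosolic Hsp70, was under the filter, with 54, 50, 19 and 7 counts summed over the 6 libraries of sham females, exposed females, sham males and exposed males.

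The spread between animals of the same group differed from gene to gene. The biological coefficient of variation, edgeR's estimate of the spread beyond counting noise, was 35.2% for Hspb1 and 24.5% for Hsp90aa1, at the 96.3 and 87.4 percentiles of all genes tested, whose median was 14.2%. Hspa8, Hsph1 and Bag3 had values between 17.8% and 17.9%, and Dnajb1 had 14.6%. The mitochondrial Hspe1, Hspd1 and Hspa9 and the cytosolic Hsp90ab1 had the tightest levels, at 12.1%, 11.8%, 10.3% and 11.7%.

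Within groups, the levels of Hspa8, Hsph1, Hsp90aa1 and Hsp90ab1 varied together between animals, and so did those of Hspd1 and Hspa9. Of the 45 pairs, 14 had a Pearson r of group-centred log2 CPM past an adjusted p of 0.05 (100000 permutations within groups, two-sided), and all 14 were positive. The share of such pairs among other genes was not computed, so whether the count is particular to these genes cannot be told. Hspa8 and Hsp90aa1 had r = 0.89 and Spearman rho = 0.893 over 24 animals, each with the smallest p that the permutations can give, 1e-05 (adjusted permutation p 1.12e-04 for r). Leaving out the 2 animals farthest from the median of Hspa8 kept r at 0.88. Hsph1 had r = 0.88 with Hsp90aa1 and 0.87 with Hspa8, and Hsp90aa1 had r = 0.77 with Hsp90ab1. All 6 pairs among these 4 genes, grouped after their values were seen, were called, with r from 0.68 to 0.89, and all 6 were called without animals 13 to 16, with r from 0.79 to 0.92. Within the 12 males all 6 were called, with r from 0.82 to 0.92. Within the 12 females 3 were called, with r of 0.90, 0.88 and 0.80 among Hspa8, Hsph1 and Hsp90aa1, while Hsp90ab1 had r = 0.61 with Hspa8, 0.49 with Hsph1 and 0.66 with Hsp90aa1 (adjusted permutation p 0.129, 0.266 and 0.112).

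Hspd1 and Hspa9 had r = 0.80 and rho = 0.821 (adjusted permutation p 1.12e-04 for r), and r = 0.81 without the 2 farthest animals or 0.84 without animals 13 to 16. It held in 12 females at r = 0.84 and in 12 males at r = 0.78, with adjusted permutation p of 0.0141 and 0.0136. They were not separate from the 4 cytosolic genes. Of the 8 pairs between them 5 were called, Hspd1 with Hspa8 (r = 0.66), Hsph1 (0.67) and Hsp90aa1 (0.61), and Hspa9 with Hsph1 (0.62) and Hsp90aa1 (0.53). Without animals 13 to 16, 2 of the 8 were called, Hspd1 with Hspa8 and with Hsph1, both at r = 0.66. Within males 4 were called, all of them of Hspd1, with Hspa8 at r = 0.88, and within females 0, with Hspa8 at r = 0.21; whether the sexes differ was not tested.

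Hspe1, whose start lies 289 bases from that of Hspd1, was in no called pair over 24 animals. Its r with Hspd1 was -0.25 (rho -0.231, adjusted permutation p 0.425), and with Hspa9 -0.40 (adjusted permutation p 0.265); without animals 13 to 16 these were -0.12 and 0.02. Hspb1 and Bag3 had r = 0.66 (adjusted permutation p 0.0135). The lowest r of all was -0.56 between Hspa9 and Bag3, which did not pass (adjusted permutation p 0.0505). Without animals 13 to 16, 15 pairs passed, all positive. Within females 6 pairs passed, of which 5 were positive, and within males 11, all positive. The negative pair in females was Hspe1 with Hsph1, at r = -0.65 and rho = -0.853 (adjusted permutation p 0.0141 for r), against -0.47 over all animals and -0.35 within males, neither called. All points share their library and its depth, and the labels do not say whether consecutively numbered animals were handled together.

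**Figure D5:**
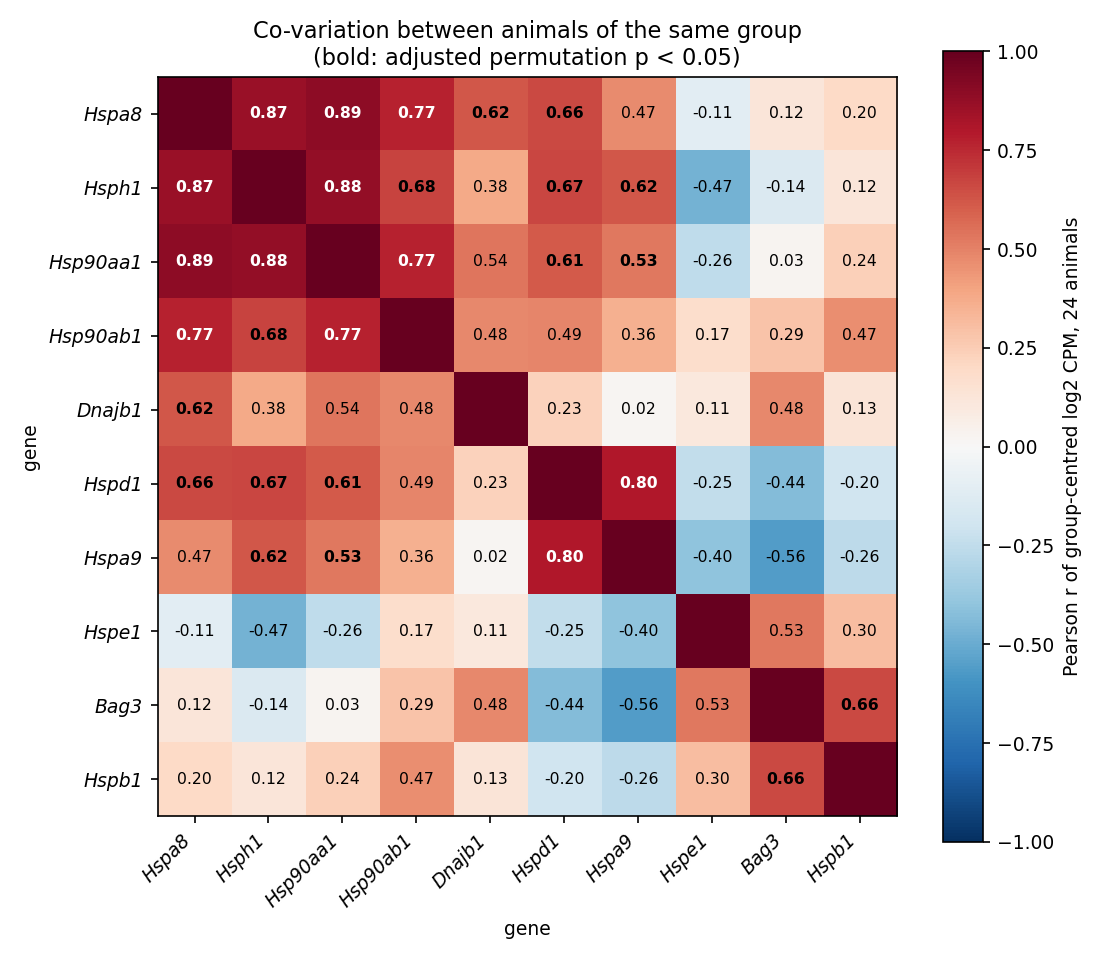
Pearson r between pairs of the 10 genes (both axes) of group-centred log2 CPM over 24 animals, from -1 (blue) to 1 (red), with bold numbers for an adjusted permutation p under 0.05. Hspa8, Hsph1, Hsp90aa1 and Hsp90ab1 form a block of high r at the upper left, with r from 0.68 to 0.89, and Hspe1 has r = -0.25 with Hspd1.

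Among all other tested genes, those most like the mean of the 7 cytosolic genes between animals were Bud13 (r = 0.82), Zpr1 (0.80), Ccdc117 (0.78), Inpp5b (0.77) and Ing1 (0.75), over 24 animals. Those most like the mean of the 3 mitochondrial genes were Fdps (r = 0.78), Cyp51 (0.77), Sc5d (0.76), Oma1 (0.76) and Osbpl2 (0.74). Hspe1 itself had r = 0.19 with the mitochondrial mean that it is part of, against 0.85 for Hspd1 and 0.77 for Hspa9. These values are descriptions of the 24 libraries and were not tested.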

How the data were processed

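Per the labels, liver RNA of 24 rats was sequenced, and the authors deposited raw gene counts in 1 table for each sex, by Entrez ID. The submitters' processing notes name FastQC, HISAT2 and rn6. How reads were counted, on which strand and with which annotation, is not given in the sources used here, so overlapping and antisense genes cannot be told apart. Symbols came from RefSeq (GRCr8), which matched 15230 of 15319 IDs. Counts of every replicate pair differed beyond sampling noise (lowest chi-square per degree of freedom 6.68). Tests used edgeR 4.0.16 (TMM, filterByExpr with a minimum count of 10 and minimum total of 15, robust quasi-likelihood, Benjamini-Hochberg adjustment over all genes, threshold 0.05). Exposure was tested within each sex, and the average response, its sex difference and the sex contrasts in 1 fit of 24 libraries. Permutation tests and promoter matches used numpy 2.4.6, with log2(CPM + 0.5). The library axis is the first principal component of group-centred log2 CPM; females were scored with weights computed in males, and males with those of females. Alternatives were RLE factors, no filter, DESeq2 1.42.0, all libraries in 1 fit, leaving out animals or libraries, the axis as a covariate, a replicate block and, chosen after seeing the data, counts summed over consecutively numbered animals. The edgeR fits of the main comparisons were checked on simulated counts with known changes. The 10 genes and all lists were chosen with earlier results of these data known. Named genes are the 10, up to 4 of each other list by the smallest p in the average response, and the 5 genes most like each mean; others are said to be named after their values were seen. Hspa1b, Dnajc13, Hspb11, Pfdn4, Vbp1 and Clpp were not analysed here.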

Additional observations from a re-analysis of the deposited data

Results flagged for a closer look

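Hspa8 in exposed males had 1 animal, replicate 6, at 1056 CPM, far above the other 5 exposed males, and the same animal stood apart for Hsp90ab1 at 788 CPM. Of 40 combinations of gene and group tested for a distant value, 2 were marked, and chance marks about 1 in 20. Without this animal the male log2 fold change was -0.03 for Hspa8 and 0.02 for Hsp90ab1, and the exposed sex difference of Hspa8 was 0.74.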

How the results depend on the processing

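The 6 sex calls in sham animals (Hspe1, Hspa8, Hsph1, Hsp90aa1, Hsp90ab1 and Dnajb1) held with RLE factors, without the count filter, with DESeq2, without animals 13 to 16, with the axis covariate and with each library left out. Animals 13 to 16 were all exposed, so leaving them or another exposed library out removed no sham animal. For the counts over all genes, DESeq2 called 27 genes in females, 1 in males and 99 in the average of both sexes, where edgeR called 0, and the fit of all 24 libraries called 1 in females. Leaving out each library gave 0 to 8 calls in females and 0 to 15 in the average. Pairs that varied together numbered 14 over all animals and 6 within the 12 females. The cause of these changes was not tested.

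The labels give animal numbers but no pairing of females with males. With a replicate block of consecutively numbered animals, 2467 genes were called between the sexes in sham and 2402 in exposed animals, and 0 for the sex difference of the response; of the 10 genes, Hspd1 was added in sham animals. The axis covariate added Hspd1 and Hspb1 there, and DESeq2 and leaving out animals 13 to 16 added Hspb1. With counts summed over consecutively numbered animals, chosen after seeing the data, 0 of the 10 genes were called in the average response and 0 changed direction.

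Small exposure values, none of them called, changed sign. For Hsp90ab1 in females the log2 fold change was 0.000688 with RLE factors, 0.000101 with DESeq2, 0.00140 in the fit of all libraries, 0.0320 without animals 13 to 16 and 0.0129 with the axis covariate. Without animals 13 to 16, Bag3 had 0.0381 in females and 0.0143 in the average, and in males Hspa9 had -0.0146 and Hsph1 -0.0378. With the axis covariate, males had -0.0203 for Hspa9, -0.0344 for Hspa8, -0.144 for Hsph1 and -0.0124 for Hsp90aa1, and the average had -0.00155 for Hspa9 and -0.0555 for Hspa8. With each library left out, females ranged from -0.0872 to 0.0522 for Hspa8, -0.0388 to 0.0419 for Hsp90ab1 and -0.179 to 0.248 for Hspb1. Males ranged from -0.0329 to 0.173 for Hspa8, -0.0568 to 0.134 for Hsph1 and -0.159 to 0.000885 for Dnajb1. The average ranged from -0.0265 to 0.0797 for Hspa8 and -0.0993 to 0.00144 for Hsph1, and the exposed sex difference of Bag3 from -0.00731 to 0.206. Depth limits Hspb1 most, with as few as 20 counts in a library.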

Other observations

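Most chaperones of the endoplasmic reticulum, which fold secreted proteins, had the opposite sign to most of the 7 cytosolic genes between the sexes. In sham animals 6 of 16 were called lower and 1 higher in females by edgeR, with a median log2 difference of -0.25, and in exposed animals 4 were called lower and 1 higher, with a median of -0.24. Over all genes 9.62% were called lower in sham and 9.73% in exposed females. Hspa13 had -0.44 ± 0.10 and Pdia3, a disulfide isomerase, -0.28 ± 0.08 in sham animals. With exposure 13 of 16 had a value above 0 in the average of both sexes, 10 of them at an unadjusted edgeR p under 0.05. Of all 10535 genes tested, 847 had such a p with a higher value, and 15.4% had it in either direction. Of the 16 genes 0 were called (Hsp90b1 0.24 ± 0.07, Hyou1 0.28 ± 0.08). Their values without animals 13 to 16 were not worked out.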
